A study of Mus musculus with 8 samples.

Results

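The Arp2/3 complex is the actin nucleator that starts a new filament on the side of an existing one and so builds branched networks. Its core holds 2 actin-related proteins, Arp2 and Arp3, held by 5 scaffold and bridging positions named ARPC1 to ARPC5. In the mouse table the ARPC1 position can be filled by the product of Arpc1a or of Arpc1b, and the ARPC5 position by that of Arpc5 or Arpc5l. This gives the 9 genes described here. Actr3b, another Arp2/3 gene, was not listed in the table. The complex is nearly idle until a nucleation promoting factor such as a WAVE, WASP or WASH protein brings it actin, and in fibroblasts it drives lamellipodia. The 9 genes were taken from the table by their symbols (Actr2, Actr3, Arpc1a, Arpc1b, Arpc2, Arpc3, Arpc4, Arpc5 and Arpc5l), and all 9 were among its 12528 genes.

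The libraries came from immortalized mouse embryonic fibroblasts (MEFs) of WT or Cav1KO littermates. Cav1 encodes caveolin-1, a main structural protein of caveolae, and the Cav1KO cells lack it. Cells of each genotype were seeded at low confluence on stiff or soft polyacrylamide hydrogels, and RNA was taken 24 h later. This gave 4 groups with 2 libraries each, named below by genotype and substrate, and the comparison of the groups asks how the response to substrate rigidity depends on Cav1. No source used here gives the number of embryos or lines behind a genotype, or says that libraries 1 and 2 of a group came from separate cultures, so the spread between them may be technical. For the same reason a difference between genotypes cannot be told apart from a difference between cell lines.

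Values are CPM, a gene's reads relative to the library total in units of 1e+06 reads, after scaling by the trimmed mean of M-values (TMM). The libraries held 17089836 to 19944952 reads, and each member had 654 to 12613 reads in a library, a counting error of 0.890% to 3.91%. In 7 of the 36 pairs of a member and a group, the 2 libraries differed by no more than this error gives, and in the others by more. Cav1 levels ran from 949.8 to 1157 CPM over the 4 WT libraries, and no Cav1KO library exceeded 0.411 CPM. Of 9 fibroblast markers 8 were listed, and their summed level was 9001 to 9187 CPM in WT stiff, 11453 to 11650 in WT soft, 4318 to 5413 in Cav1KO stiff and 12976 to 13032 in Cav1KO soft. Each listed marker was lower on stiff in both genotypes, except Col1a1 in WT cells. Col1a1 was at 2515 to 2612 CPM in WT stiff and 2035 to 2273 CPM in WT soft. Of 10 macrophage and other blood cell markers only Cd14, Cd68 and Cd53 were listed, summing to 25.4 to 40.7 CPM in the WT and 93.9 to 106.8 CPM in the Cav1KO libraries. Most of this sum was Cd14 alone, at 24.4 to 39.0 CPM in WT and 88.2 to 102.5 CPM in Cav1KO. Cd68 did not exceed 4.55 CPM or Cd53 3.18 CPM in any library. None of 7 epithelial or 6 endothelial markers was listed, and of 7 muscle markers only Tnnt2 was, at 0.105 to 3.82 CPM. The part of these shifts in the results on the subunits was not tested, and in bulk RNA fewer cells of a type and less RNA per cell cannot be told apart.

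The 9 genes were all measured well above the limit of detection, between 34.2 and 695.7 CPM. To set genes side by side, CPM was divided by the length of the gene's exons in kb and averaged over the 8 libraries. On this per-length level Arpc4 came first at 124.8 ± 17.0 CPM per kb (SD, n = 8 libraries of all groups), followed by Actr3 at 117.8 ± 25.4, Arpc2 at 105.1 ± 12.6 and Arpc5 at 96.6 ± 8.66. Neighbours among these 4 differed by less than either SD, except that Actr3 and Arpc2 differed by slightly more than the SD of Arpc2 and by less than that of Actr3. Arpc1a followed at 66.1 ± 9.48, then Actr2 at 52.5 ± 7.71 and Arpc1b at 48.7 ± 5.57, and the last 2 of these lay within their SDs of each other. Arpc3 stood at 36.4 ± 3.80 and Arpc5l was lowest at 11.0 ± 2.39. These SDs hold the differences between groups, and the order changed with the group. In Cav1KO soft Arpc5 came first at 104.9 CPM per kb, with Actr3 at 84.6. In Cav1KO stiff Actr3 came first at 135.1, ahead of Arpc4 at 131.9. Division by the longest protein-coding transcript put Actr3 first at 212.6 CPM per kb and moved Arpc3 from the eighth place to the fifth, at 111.7, while Arpc5l stayed last at 36.8.

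**Figure D1:**
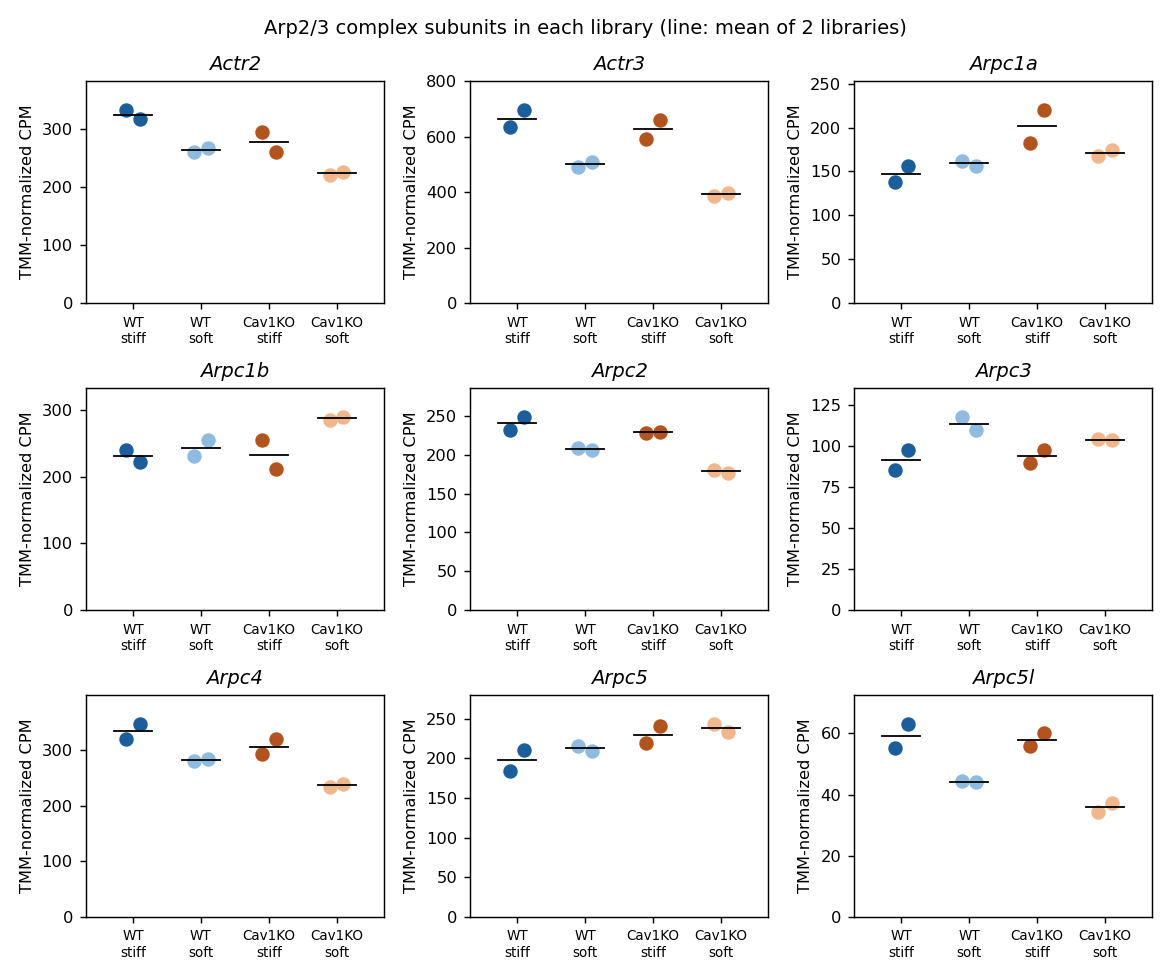
Level of each Arp2/3 subunit gene in TMM-normalized CPM (vertical axis, from 0) in the 4 groups, with points for the 2 libraries of a group and lines for their means. Actr2, Actr3, Arpc2, Arpc4 and Arpc5l are higher on the stiff substrate in both genotypes, as in Actr3, which runs from 387.2 CPM in Cav1KO soft to 695.7 CPM in WT stiff.

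Actr2, Actr3, Arpc2, Arpc4 and Arpc5l rose on the stiff substrate in WT and in Cav1KO cells (5 members called higher in both genotypes). Of all genes, 22.1% were called higher in WT and 27.9% in Cav1KO cells, and the share called in both was not counted. Arpc1a and Arpc5 did not pass the test in either genotype, Arpc3 fell on the stiff substrate in WT cells, and Arpc1b fell in Cav1KO cells. The tests were limma contrasts on log2(CPM + 1) over all 8 libraries, two-sided, with Benjamini-Hochberg adjustment over 12494 genes and a threshold of 0.05.

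The actin-related proteins form the seed of the new filament. Actr3, which encodes Arp3, stood at 633.4 and 695.7 CPM in WT stiff, 491.3 and 508.2 in WT soft, 592.1 and 659.3 in Cav1KO stiff, and 387.2 and 396.3 in Cav1KO soft. Every stiff library was above every soft library. The rise was 1.33-fold in WT cells (log2 fold change 0.41 ± 0.08 SE, adjusted p = 0.00356) and 1.59-fold in Cav1KO cells (0.67 ± 0.08 SE, adjusted p = 0.000203). Actr2, which encodes Arp2, stood at 333.6 and 318.0 CPM in WT stiff and at 261.5 and 267.3 in WT soft. It stood at 296.2 and 261.5 CPM in Cav1KO stiff and at 222.0 and 226.9 in Cav1KO soft, so the lower Cav1KO stiff library reached the level of WT soft. The log2 rise of Actr2 was 0.30 in WT cells (adjusted p = 0.0121) and 0.31 in Cav1KO cells (adjusted p = 0.00864).

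Arpc2 and Arpc4 encode the subunits that form the structural core and contact the mother filament. Arpc2 stood at 231.7 and 248.8 CPM in WT stiff, 208.4 and 205.5 in WT soft, 227.7 and 229.6 in Cav1KO stiff, and 180.2 and 176.7 in Cav1KO soft. Arpc4 stood at 320.0 and 347.7 CPM in WT stiff, 280.6 and 283.6 in WT soft, 292.5 and 319.7 in Cav1KO stiff, and 234.3 and 239.4 in Cav1KO soft. For both genes every stiff library exceeded every soft library, and Cav1KO soft was lowest. Arpc2 rose by 0.21 on the log2 scale in WT cells (adjusted p = 0.0265) and by 0.36 in Cav1KO cells (adjusted p = 0.00194), and Arpc4 by 0.24 (adjusted p = 0.0263) and 0.37 (adjusted p = 0.00308). Part of the Arpc4 exons, 12.2%, is also annotated as exon of Ttll3 on the same strand, a gene that is not listed in the table.

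Arpc5l encodes the second form of the ARPC5 subunit. It stood at 55.2 and 63.2 CPM in WT stiff, 44.3 and 44.1 in WT soft, 55.8 and 60.0 in Cav1KO stiff, and 34.2 and 37.3 in Cav1KO soft. The stiff libraries of both genotypes lay together above 55 CPM, and the soft libraries lay apart by genotype. Its log2 rise was 0.41 in WT cells (adjusted p = 0.0075) and 0.68 in Cav1KO cells (adjusted p = 0.000436).

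Arpc5, the partner form, stood at 183.9 and 211.1 CPM in WT stiff, 216.3 and 209.5 in WT soft, 219.0 and 241.1 in Cav1KO stiff, and 244.1 and 233.6 in Cav1KO soft. Stiff and soft libraries overlapped in both genotypes, with log2 differences of -0.11 in WT cells (95% interval -0.31 to 0.09) and -0.06 in Cav1KO cells (-0.25 to 0.14). Arpc3, a small subunit on the Arp3 side, stood at 85.1 and 97.4 CPM in WT stiff and at 117.6 and 109.2 in WT soft, a fall by 0.31 on the log2 scale (adjusted p = 0.0186). In Cav1KO cells Arpc3 was at 89.2 and 97.7 CPM on stiff and 104.0 and 103.5 CPM on soft (log2 difference -0.15, adjusted p = 0.178).

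Arpc1a and Arpc1b encode the 2 forms of the WD-repeat subunit that nucleation promoting factors contact, and they lie next to each other on chromosome 5 with 5453 bases between them. Arpc1a stood at 138.1 and 156.0 CPM in WT stiff, 162.2 and 156.3 in WT soft, 182.6 and 220.0 in Cav1KO stiff, and 168.0 and 174.4 in Cav1KO soft. The stiff libraries were lower than the soft ones in WT cells (log2 difference -0.12, adjusted p = 0.368) and higher in Cav1KO cells (0.23, adjusted p = 0.0845), and neither difference passed. Arpc1b stood at 240.6 and 222.2 CPM in WT stiff, 231.1 and 255.5 in WT soft, 255.9 and 211.4 in Cav1KO stiff, and 285.8 and 290.5 in Cav1KO soft. The WT libraries overlapped, and in Cav1KO cells Arpc1b was lower on stiff by 0.31 on the log2 scale (adjusted p = 0.0286). Of the Arpc1b exon bases, 18.2% are also exon of Pdap1 on the opposite strand, and the library kit does not mark strand, so reads there cannot be told apart. Pdap1 was at 136.4 to 161.8 CPM in the stiff and 79.9 to 90.2 CPM in the soft libraries, and its part in the Arpc1b values was not tested.

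**Figure D2:**
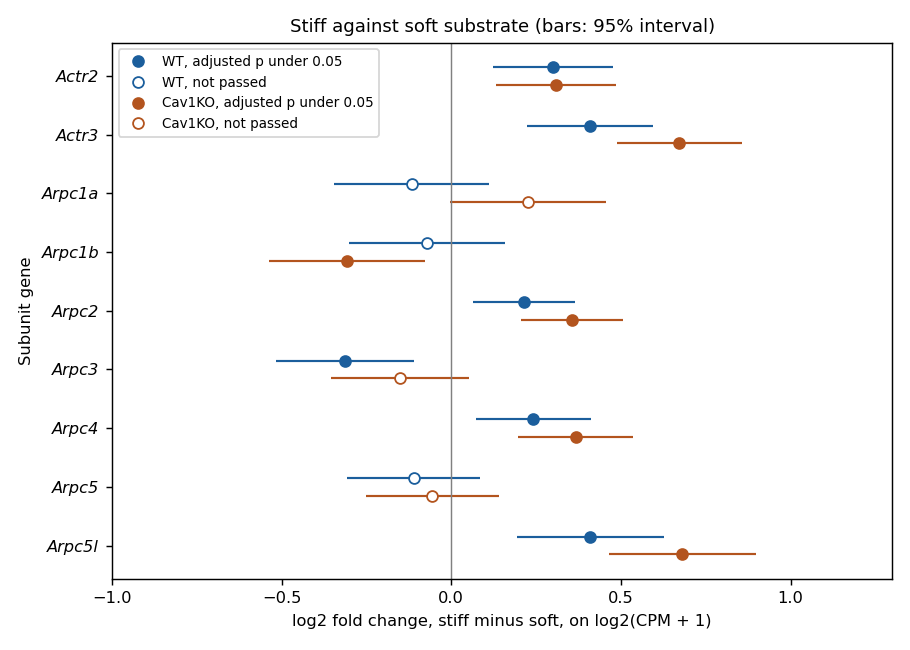
Log2 fold change of each subunit gene, stiff minus soft on log2(CPM + 1) (horizontal axis), in WT (blue) and Cav1KO (brown) cells, with 95% intervals and filled points where the adjusted threshold of 0.05 was passed. The 5 members called in both genotypes lie to the right, from 0.21 for Arpc2 in WT cells to 0.68 for Arpc5l in Cav1KO cells.

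Counted over the complex, 5 of 9 members were higher and 1 lower on stiff in WT cells. Of all genes tested, 22.1% were called higher and 26.3% lower in that comparison. In Cav1KO cells the counts were again 5 higher and 1 lower, against 27.9% and 28.2% of all genes. The median log2 fold change of the members was 0.21 in WT cells and 0.31 in Cav1KO cells, while the median over all genes was -0.02 in both. Actr3 passed under all 17 alternative settings in both genotypes (highest adjusted p 0.0299 in WT and 0.00424 in Cav1KO cells), and so did Arpc2, Arpc4 and Arpc5l in Cav1KO cells. In WT cells the count of 5 higher dropped to 2 without WT stiff library 2 or WT soft library 1, and to 3 without WT soft library 2 or without either Cav1KO soft library. Arpc2 and Arpc4 did not pass in any of these 5 fits, while Actr2 did not pass without WT stiff library 1 or WT soft library 1, and Arpc5l without WT stiff library 2. Actr2 in Cav1KO cells did not pass without Cav1KO soft library 1 (adjusted p = 0.0649) or with quantile normalization (0.128). Arpc3 in WT cells no longer passed without WT stiff library 1 or WT soft library 1 (adjusted p = 0.123 and 0.116), nor did Arpc1b in Cav1KO cells without Cav1KO stiff library 2 or either Cav1KO soft library (0.169, 0.101 and 0.121). Centring each library on its median turned the split of calls into 5 higher and 0 lower in WT cells and 6 higher and 0 lower in Cav1KO cells, and quantile normalization turned the latter into 4 higher and 3 lower.

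Whether the response differed between genotypes was tested as the WT effect minus the Cav1KO effect. None of the 9 members passed limma's test of this difference, in a comparison where 4.47% of all genes were called higher and 6.0% lower. At an unadjusted p under 0.05 there were 2 members with a lower WT effect, Arpc1a and Actr3, and 0 with a higher one, and edgeR and DESeq2 on the recovered reads also called 0. For Actr3 the difference was -0.26 (95% interval -0.52 to -0.00, adjusted p = 0.142). For Arpc1a it was -0.34 (-0.67 to -0.02, adjusted p = 0.127), and for Arpc5l -0.27 (-0.58 to 0.04, adjusted p = 0.186). The effects of Actr2 were nearly equal, with a difference of -0.01 (-0.26 to 0.24). The difference was below 0 for 8 of 9 members, with a median of -0.14 against -0.07 over all genes. Arpc1b was the exception at 0.24 (-0.09 to 0.56). With single libraries left out, the difference of Arpc1a ran from -0.48 to -0.21, and it was -0.48 without Cav1KO stiff library 1.

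The genotypes were then compared on each substrate, with contrasts that use the same libraries as the comparisons above. Since the number of lines behind a genotype is not given, these contrasts cannot tell genotype and cell line apart. On the soft substrate the members that rose with rigidity were lower in Cav1KO than in WT cells. Actr3 was lower by 0.35 on the log2 scale (adjusted p = 0.00629), Arpc5l by 0.30 (adjusted p = 0.026), Arpc4 by 0.25 (adjusted p = 0.0196), Actr2 by 0.24 (adjusted p = 0.0298) and Arpc2 by 0.21 (adjusted p = 0.0235). For each of the 5, both Cav1KO soft libraries were below both WT soft libraries. The soft libraries also did not overlap between genotypes for any of the other members, none of which limma called. Of these Arpc3 was lower in Cav1KO cells (adjusted p = 0.258). Arpc1a, Arpc1b and Arpc5 were higher (adjusted p = 0.41, 0.0681 and 0.136). The share of all genes without such overlap was not counted. By limma 5 members were lower, where 29.9% of all genes were called lower, and 0 were higher, where 24.1% were. At an unadjusted p under 0.05, 1 member, Arpc1b, was higher (log2 difference 0.24, adjusted p = 0.0681). It was called higher by DESeq2 (1 member), and edgeR called 0.

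These calls were close to the threshold. The count of 5 dropped to 1 without WT soft library 1, WT soft library 2 or Cav1KO soft library 2, to 0 without Cav1KO soft library 1, and to 2 with DESeq2. The largest difference, that of Actr3, ranged from -0.37 to -0.33 when single libraries were left out, with an adjusted p of 0.0543 without Cav1KO soft library 1. Quantile normalization changed the split from 0 higher and 5 lower to 2 higher and 3 lower, and median centring to 1 higher and 4 lower.

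On the stiff substrate Arpc1a was higher in Cav1KO cells, 1.36-fold (log2 difference 0.45 ± 0.10 SE, adjusted p = 0.00579), with both Cav1KO libraries above both WT libraries, and it passed under all 17 alternatives. Actr2 was lower by 0.23 (adjusted p = 0.0363), a call that was lost when any 1 library other than Cav1KO stiff library 1 was left out (adjusted p from 0.0105 to 0.199 over the 17 alternatives). The other 7 members did not pass. Among them Arpc5 was at a log2 difference of 0.22 (95% interval 0.02 to 0.42, adjusted p = 0.0596) and Actr3 at -0.09 (-0.27 to 0.10). One member higher and 1 lower compare with 25.0% and 26.6% of all genes.

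**Figure D3:**
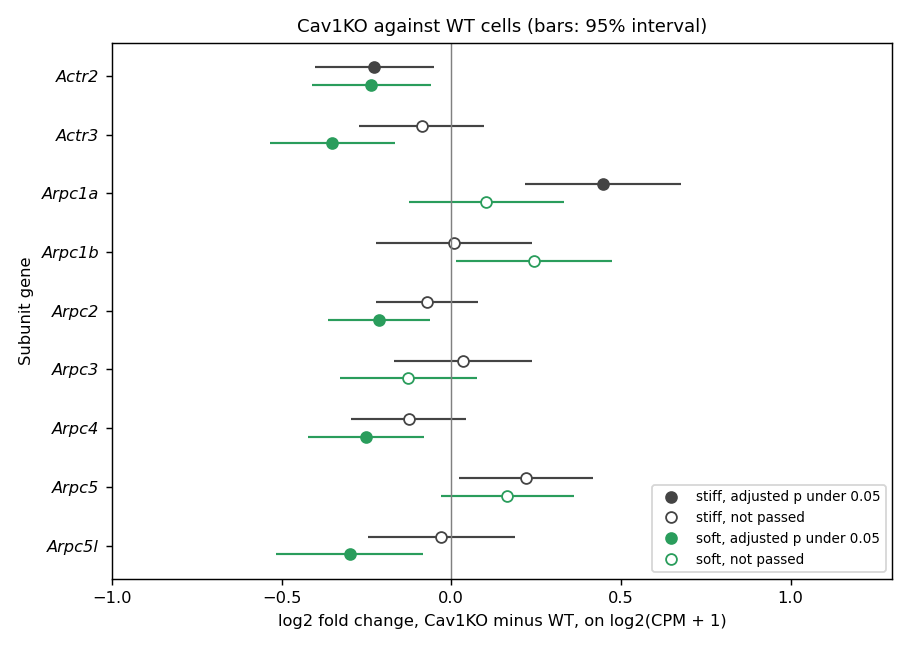
Log2 fold change of each subunit gene, Cav1KO minus WT on log2(CPM + 1) (horizontal axis), on the stiff (grey) and soft (green) substrate, with 95% intervals and filled points where the adjusted threshold of 0.05 was passed. On soft, 5 members lie to the left of 0, down to -0.35 for Actr3, and on stiff Arpc1a stands out to the right at 0.45.

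The exchangeable subunits were also compared as ratios within a library, which no scaling of libraries can change. These ratios use CPM not divided by length, so they compare libraries and do not give the proportion of molecules. The Arpc5l to Arpc5 ratio was 0.300 and 0.299 in WT stiff, 0.205 and 0.210 in WT soft, 0.255 and 0.249 in Cav1KO stiff, and 0.140 and 0.160 in Cav1KO soft. The 4 groups did not overlap, and the order was WT stiff, Cav1KO stiff, WT soft and Cav1KO soft. The log2 ratio was higher on stiff by 0.53 in WT and by 0.75 in Cav1KO cells. With 2 libraries against 2 an exact permutation test cannot go below p = 0.333, the value that each of these differences gave.

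The Arpc1b to Arpc1a ratio was less even between libraries. It was 1.74 and 1.42 in WT stiff, 1.42 and 1.63 in WT soft, 1.40 and 0.961 in Cav1KO stiff, and 1.70 and 1.67 in Cav1KO soft. The WT groups overlapped, while both Cav1KO stiff libraries were below all others. The library Cav1KO stiff 2 was the only one with less Arpc1b than Arpc1a signal. The mean ratio in Cav1KO stiff was 1.18 ± 0.31 (SD, n = 2) against 1.68 ± 0.03 in Cav1KO soft (exact permutation p = 0.333, the lowest possible).

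**Figure D4:**
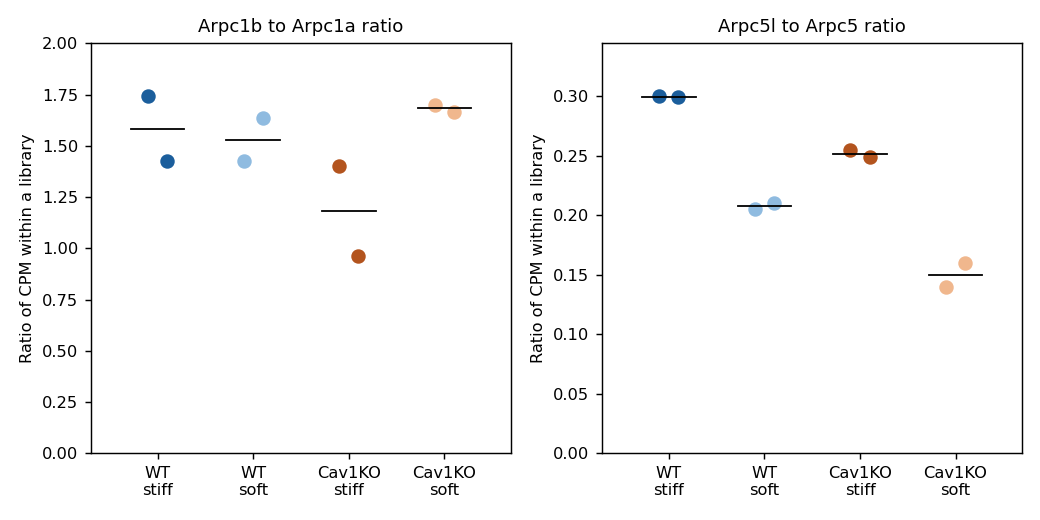
Ratio of CPM of the 2 alternative forms within each library (vertical axis, from 0), Arpc1b to Arpc1a on the left and Arpc5l to Arpc5 on the right, in the 4 groups, with points for libraries and lines for group means. The Arpc5l to Arpc5 ratio separates the groups, from 0.300 in WT stiff to 0.140 in Cav1KO soft, and the Arpc1b to Arpc1a ratio is spread widest in Cav1KO stiff.

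The members also differed in how alike their profiles were. Likeness was measured as the root mean square difference of log2(CPM + 1), centred per gene, over the 8 libraries. The closest pairs of members were Arpc2 with Arpc4, at 0.04, and Actr3 with Arpc5l, also at 0.04, while the farthest was Actr3 with Arpc1b, at 0.44. Arpc1a and Arpc1b were 0.26 apart and Arpc5 and Arpc5l 0.37. Actr3 and Arpc5l had the widest span of group means, 0.76 and 0.71 on the log2 scale, both from WT stiff down to Cav1KO soft. Among 10055 other genes with a mean of at least 5 CPM, the nearest to Actr3 were Snrnp25 (0.02), Srprb (0.02) and Glrx3 (0.03). The nearest to Arpc5l were Glrx3 (0.03), Srprb (0.04) and Acp1 (0.04).

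The genes lie on several chromosomes of GRCm38 (GENCODE M21 coordinates). Actr3 is on chr1:125392905-125435727 (minus strand), Arpc2 on chr1:74236084-74268209 and Arpc5 on chr1:152766542-152775597 (both plus). Actr2 is on chr11:20062304-20112913 (minus), Arpc4 on chr6:113378115-113390448, Arpc5l on chr2:39005348-39015877 and Arpc3 on chr5:122391878-122414184 (all plus). Arpc1a and Arpc1b are at chr5:145083830-145108761 and chr5:145114215-145130705 (plus). Of the distinct 60-base windows in Actr3 transcripts, 22.6% also occur in other annotated genes, the pseudogenes Gm8822 and Gm15899, which are not listed in the table. How such reads were assigned is not given in the sources used here.

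Because 5 members moved together, promoter windows of RefSeq (GRCm38.p6) were examined for 8 members, and the 250 bases before the start are shown for 3 that rose (Actr3, Actr2 and Arpc4) and for Arpc3, which did not. They are written 5′ to 3′ on the gene's strand. Capitals mark matches to the motifs searched. The windows are at chr1:125435728-125435977 for Actr3 (minus strand), chr11:20112952-20113201 for Actr2 (minus), chr6:113377863-113378112 for Arpc4 (plus) and chr5:122391628-122391877 for Arpc3 (plus).
Actr3: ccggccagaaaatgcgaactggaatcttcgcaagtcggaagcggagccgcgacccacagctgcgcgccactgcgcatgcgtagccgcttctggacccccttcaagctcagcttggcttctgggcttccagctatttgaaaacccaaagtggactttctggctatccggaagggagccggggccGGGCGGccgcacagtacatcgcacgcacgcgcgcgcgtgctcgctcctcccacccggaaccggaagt
Actr2: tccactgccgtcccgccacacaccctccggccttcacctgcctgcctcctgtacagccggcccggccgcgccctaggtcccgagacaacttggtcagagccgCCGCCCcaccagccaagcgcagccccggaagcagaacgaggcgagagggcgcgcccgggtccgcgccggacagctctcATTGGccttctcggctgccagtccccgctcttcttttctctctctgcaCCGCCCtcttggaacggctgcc
Arpc4: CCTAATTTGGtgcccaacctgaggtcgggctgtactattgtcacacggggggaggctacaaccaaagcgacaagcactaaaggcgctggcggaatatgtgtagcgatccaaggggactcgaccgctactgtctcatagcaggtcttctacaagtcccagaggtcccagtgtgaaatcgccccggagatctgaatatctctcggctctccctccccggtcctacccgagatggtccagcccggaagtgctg
Arpc3: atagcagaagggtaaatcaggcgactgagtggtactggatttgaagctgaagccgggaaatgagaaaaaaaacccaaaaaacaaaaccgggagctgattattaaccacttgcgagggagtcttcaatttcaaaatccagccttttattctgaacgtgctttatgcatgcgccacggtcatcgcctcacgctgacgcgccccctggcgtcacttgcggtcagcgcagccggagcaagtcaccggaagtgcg

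The motifs were searched on both strands in the whole windows of 300 bases (250 before and 50 after the start), and no match overlapped that of another motif. The GC box GGGCGG was in 6 of 8 member windows, against 35.7% of 32851 RefSeq promoters. It lay in the windows of Actr2, Actr3, Arpc1b, Arpc2, Arpc3 and Arpc5, so it was found with members that rose and with members that did not. The CCAAT box was in 2 of 8 (Actr2 and Arpc5; 37.4% of all promoters). The TEAD motif GGAATG was in 1 of 8 (Arpc2; 14.7%), and the CArG box bound by serum response factor was in 1 of 8 (Arpc4; 1.63%), at the far end of its window, in 21 bases that are also an exon of the neighbouring gene Tada3. The cyclic AMP response element TGACGTCA and the TATA motif TATAAA were in 0 of 8 (1.79% and 13.6% of all promoters). The GC content of the 250 bases ran from 51.2% for Arpc3 to 74.4% for Arpc5, against a median of 52.4% over all promoters.

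The genes that act on the complex were taken from lists of its activators, inhibitors and partners, of which 49 of 60 genes were tested. On the stiff substrate 5 of the 49 were higher and 8 lower in WT cells, and 10 were higher and 23 lower in Cav1KO cells. Their median log2 fold change was -0.08 in WT and -0.27 in Cav1KO cells. The shares over all genes were 22.1% higher and 26.3% lower for WT, and for Cav1KO 27.9% higher and 28.2% lower. The counts of each list below are to be read beside these shares, and no list was tested as a set.

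In the WAVE complex, which activates Arp2/3 at lamellipodia downstream of Rac, 8 of 11 genes were tested, and 2 rose and 1 fell in each genotype. Abi2, an adaptor subunit, went from 67.0 ± 2.61 CPM (SD, n = 2) on soft to 87.6 ± 1.01 on stiff in WT cells and from 64.9 ± 3.58 to 105.8 ± 3.95 in Cav1KO cells (log2 rises of 0.38 and 0.70, adjusted p = 0.00357 and 0.000121). Nckap1, a large scaffold subunit, rose by 0.41 in WT cells (adjusted p = 0.00606, lost without WT soft library 1) and by 0.25 in Cav1KO cells (adjusted p = 0.0423, and from 0.00885 to 0.408 over the 17 alternatives, of which 9 lost the call). Abi1, the paralog of Abi2, fell on stiff in WT cells (-0.32, adjusted p = 0.0145, lost without WT stiff library 1 or WT soft library 1) and was at 0.18 in Cav1KO cells (adjusted p = 0.0972). Wasf2, which encodes the activator WAVE2, fell in Cav1KO cells (-0.49, adjusted p = 0.000654) and was at -0.08 in WT cells (adjusted p = 0.406).

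Of the inhibitors, Arpin (listed as 2610034B18Rik), which competes with WAVE for the complex, was at 70.4 ± 2.11 CPM in WT stiff and 71.7 ± 1.22 in WT soft. In Cav1KO cells it rose from 40.0 CPM on soft to 54.8 on stiff (log2 rise 0.45, adjusted p = 0.00124). Among stabilisers, debranchers and inhibitors of branches, 1 of 8 rose and 1 fell in WT cells, and 2 rose and 4 fell in Cav1KO cells. Coro1b, a coronin that promotes the loss of branches, fell by 0.91 in WT cells (adjusted p = 0.000142) and by 0.57 in Cav1KO cells (adjusted p = 0.00094). Another coronin of this list, Coro1c, went the other way. It rose by 0.73 in WT cells (adjusted p = 0.00022) and by 0.31 in Cav1KO cells (adjusted p = 0.0104). Coro7, a coronin of the Golgi, fell by 0.83 in Cav1KO cells (adjusted p = 0.000891) and was at -0.36 in WT cells (adjusted p = 0.0537). The difference between these effects did not pass (adjusted p = 0.115), and the group means of Coro7 were low, from 3.75 to 13.3 CPM.

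For the WASH complex, WHAMM and JMY, activators that serve endosomes and other internal membranes, 3 of 7 genes fell in WT cells and 5 of 7 in Cav1KO cells. None rose by limma, at an unadjusted p under 0.05 (0 in each genotype) or with edgeR or DESeq2 (0 each). Washc1 (listed as Wash) went from 52.4 ± 3.01 to 35.1 ± 1.09 CPM in WT cells and from 59.7 ± 0.85 to 36.7 ± 0.08 in Cav1KO cells, falls by 0.56 and 0.69 on the log2 scale (adjusted p = 0.000687 and 0.000177). Wasl, which encodes N-WASP, fell by 0.26 in Cav1KO cells (adjusted p = 0.0133, lost without Cav1KO stiff library 2 or either Cav1KO soft library and with median centring), 1 of 2 lower among 3 tested genes of WASP and its partners. In WT cells Wasl was at -0.10 (adjusted p = 0.267), and the difference between the effects did not pass (adjusted p = 0.287).

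Of 8 GTPases and adaptors, 1 rose and 2 fell in WT cells, and 3 rose and 3 fell in Cav1KO cells. Nck2, an SH2 and SH3 adaptor that recruits N-WASP, fell by 0.50 in WT cells (adjusted p = 0.00179) and by 0.69 in Cav1KO cells (adjusted p = 0.000254). Of the 3 capping protein genes, which stop filament growth, 2 rose and 1 fell in Cav1KO cells, and the one with the smallest adjusted p was Capzb, which fell by 0.40 (adjusted p = 0.0014). In WT cells Capzb was at -0.15 (adjusted p = 0.09996), and the difference between the effects did not pass (adjusted p = 0.118). The formins, which nucleate unbranched filaments, had 1 of 11 higher and 1 lower in WT cells and 7 of 11 lower in Cav1KO cells. Daam2 fell in both genotypes (by 0.60 with adjusted p = 0.00831, and by 0.99 with adjusted p = 0.000495), at group means of only 0.637 to 4.04 CPM. The WT call of Daam2 was lost with quantile normalization (-0.36, adjusted p = 0.0738) and with DESeq2 (-1.21, adjusted p = 0.0767), and its WT value ran from -1.21 to -0.20 over the 17 alternatives, which gave an adjusted p from 0.00215 to 0.0767. Diaph2 (listed as Diap2) fell by 1.16 in Cav1KO cells (adjusted p = 0.000941), from 12.6 ± 1.25 to 5.20 ± 1.55 CPM.

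Between genotypes, 20 of the 49 genes were lower and 10 higher in Cav1KO cells on stiff, and 15 were lower and 10 higher on soft. Over all genes, 26.6% were lower and 25.0% higher on stiff, and 29.9% and 24.1% on soft. The 2 genes with the largest differences, Wasf3 and Fmn2, were picked out after their values were seen. Wasf3, which encodes WAVE3, ranged between 11.8 and 16.1 CPM in WT. In Cav1KO it was at 0 in both stiff libraries and soft library 1, which allows up to 0.157 to 0.177 CPM per library (3 reads, counting error only), and at 0.0514 CPM, 1 read, in soft library 2 (adjusted p = 1.07e-07 on stiff and 1.71e-07 on soft). Fmn2, a formin, ranged between 4.71 and 9.99 CPM in WT and between 0.105 and 0.412 CPM in Cav1KO cells (adjusted p = 1.22e-05 on stiff and 2.43e-05 on soft). For these 2 genes too, genotype and cell line cannot be told apart. Among the other WAVE genes, Wasf1 was higher in Cav1KO cells by 0.38 on stiff (adjusted p = 0.0385) and 0.72 on soft (adjusted p = 0.00187), and Brk1 was lower by 0.41 on soft (adjusted p = 0.0123). Arpin was lower in Cav1KO cells on both substrates, by 0.35 on stiff (adjusted p = 0.00456) and by 0.83 on soft (adjusted p = 3.62e-05). Nckap1 was also lower on both, by 0.59 on stiff (adjusted p = 0.000793) and by 0.43 on soft (adjusted p = 0.00403). Nck2 was higher in Cav1KO cells, by 0.71 on stiff (adjusted p = 0.000196) and 0.90 on soft (adjusted p = 4.6e-05), and so was Coro7, by 0.76 and 1.24 (adjusted p = 0.00158 and 9.3e-05).

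**Figure D5:**
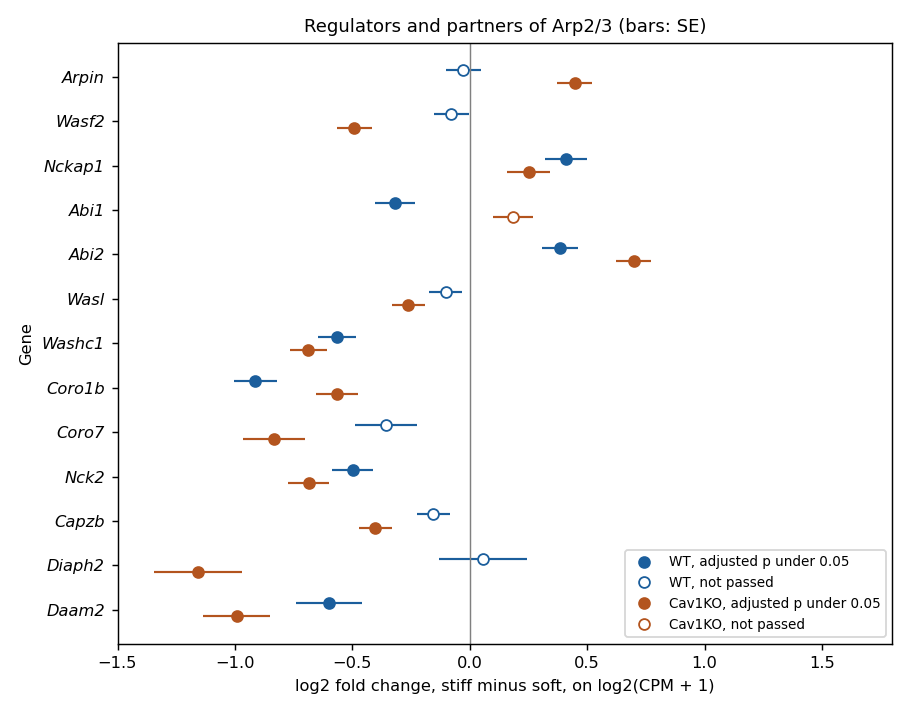
Log2 fold change, stiff minus soft on log2(CPM + 1) (horizontal axis), of named genes that regulate or accompany the Arp2/3 complex, in WT (blue) and Cav1KO (brown) cells, with SE bars and filled points where the adjusted threshold of 0.05 was passed. Abi2 and Nckap1 lie to the right in both genotypes, and Washc1, Coro1b, Nck2 and Daam2 to the left.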

How the data were processed

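Per the labels, 500 ng of total RNA gave poly(A) libraries (NEBNext Ultra), sequenced as single reads of 60 bases. The authors deposited TMM-normalized CPM, a signal in which each value is a gene's reads divided by its library's scaled size. The submitters' processing notes name CASAVA 1.8.2, cutadapt, RSEM 1.2.3 and GRCm38; the test and filter are not given in the sources used here. All values (100%, tolerance 0.01) were whole multiples of a step per library, which gave the reads; since RSEM estimates counts, these may be its estimates rounded before scaling. The 12494 of 12528 genes that reached 1 CPM in 2 or more libraries were fitted with limma 3.58.1 (R 4.3.3) on log2(CPM + 1) with a mean-variance trend. All 8 libraries entered, with 4 residual degrees of freedom, no block and Benjamini-Hochberg adjustment at 0.05. The pseudocount of 1 makes fold changes of weakly expressed genes smaller than they are. Alternatives used edgeR 4.0.16 and DESeq2 1.42.0 on the recovered reads, another pseudocount, filter or scaling, no trend, a replicate block, and the omission of each library.

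Per-length levels used GENCODE M21, which matched 12451 of the genes. As a check of the code, the fit was run on simulated counts with set changes in the WT stiff libraries only. Libraries varied independently there, so the run cannot speak to deviations that libraries share. Its recovery is not reported here. The members and lists were chosen with earlier results of these data known. Named were all 9 members, the called gene of each list with the smallest adjusted p per stiffness contrast and for their difference, and every WAVE gene called in these 3; the WAVE genes Wasf3, Wasf1 and Brk1 and the formin Fmn2 were added for the genotype comparison after their values were seen. The coronin Coro1c was added for the stiffness comparison, also after its values were seen. Near-genes were the 3 closest to the 2 members with the widest span.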

Additional observations from a re-analysis of the deposited data

Results flagged for a closer look

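No member passed the test of a difference between the stiffness effects, and of the 49 genes around the complex 4 did, 2 higher and 2 lower. Over all genes, 4.47% were called higher and 6.0% lower, so neither count was above its share. The values of the 4 genes are the WT effect minus the Cav1KO effect on log2(CPM + 1), from limma with adjustment over all genes. Abi1 was at -0.50 (adjusted p = 0.0403), with a fall on stiff in WT cells. Arpin (2610034B18Rik) was at -0.47 (adjusted p = 0.0358). Wasf2 was at 0.41 (adjusted p = 0.0445), and Diaph2 (Diap2) at 1.21 (adjusted p = 0.0322). Leaving out single libraries ended each call: 7 of the 8 omissions for Abi1 and 6 for each of the others. Over the 17 alternatives the adjusted p ran from 0.0326 to 0.143 for Abi1, from 0.0174 to 0.153 for Arpin, from 0.0173 to 0.174 for Wasf2 and from 0.00659 to 0.119 for Diaph2. Omission of Cav1KO stiff library 1 was the one that kept all 4 calls. Calls over all genes moved with the omissions too. More genes passed this test without Cav1KO stiff library 1 than with all libraries, and fewer passed with most other omissions. With 2 libraries in each group no library could be tested as standing apart from its group.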

How the results depend on the processing

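Of 405 member effects recomputed under the 9 alternatives that keep all libraries, 371 kept their direction and side of the threshold, and of 360 with a library left out 297 did. Without the variance trend, 3 members were higher on stiff in WT cells, 0 lower on stiff in Cav1KO cells, 0 lower in Cav1KO on stiff and 2 lower in Cav1KO on soft. Median centring gave 0 lower for both stiffness effects, 2 higher and 0 lower in Cav1KO on stiff, and 1 higher on soft. Quantile normalization gave 3 lower on stiff in Cav1KO cells, 2 higher in Cav1KO on stiff, and 2 higher and 3 lower on soft. DESeq2 gave 0 lower in Cav1KO than in WT cells on stiff, and 1 higher and 2 lower in Cav1KO on soft. The cause was not tested. Over libraries left out, the counts ran from 2 to 5 (higher) and 0 to 1 (lower) on stiff in WT cells, from 4 to 6 and 0 to 1 in Cav1KO cells, 0 to 0 and 0 to 1 for the difference, 1 to 2 and 0 to 1 for the genotypes on stiff, and 0 to 1 and 0 to 5 on soft; a group left with 1 library is then assumed to vary like the others.

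Signs turned only for small effects. Median centring put Arpc5 in Cav1KO cells at 0.0317, Arpc5l between genotypes on stiff at 0.0263 and Arpin in WT cells at 0.0153. Quantile normalization put the difference at 0.0754 for Actr2 and 0.0374 for Arpc5, and Arpc1b between genotypes on stiff at -0.0220. With libraries left out, the stiffness effect ran from -0.14 to 0.00059 for Arpc1b, from -0.0572 to 0.0030 for Arpin and from -0.0347 to 0.15 for Diaph2 in WT cells, and from -0.12 to 0.0136 for Arpc5 in Cav1KO cells. The difference ran from -0.10 to 0.0808 for Actr2 and -0.15 to 0.0431 for Arpc5, and the genotype effect on stiff from -0.13 to 0.15 for Arpc1b, -0.0607 to 0.13 for Arpc3 and -0.13 to 0.0670 for Arpc5l. The median over all genes shifted by at most 0.09 under another scaling. Per length, the longest coding transcript moved 8 of 9 levels by more than their SD.

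To see whether the library numbers pair samples, each gene's deviation from its group mean was taken on log2(CPM + 1). The correlation of these deviations between same-numbered libraries ran from -0.37 (WT stiff with WT soft) to 0.42 (WT stiff with Cav1KO stiff). The numbers thus did not pair the samples over the 4 groups. In the stiff groups all 9 members differed between libraries 1 and 2 with the same sign in both genotypes, against 2 of 9 for WT stiff with WT soft. A block over the 4 groups does not capture this, and none confined to the stiff libraries was fitted. With the replicate block the counts were 5 higher and 1 lower in WT cells, 5 and 1 in Cav1KO cells, 0 and 0 for the difference, 1 and 1 on stiff, and 0 and 5 on soft, as without it.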
